A study of Mus musculus with 4 samples.

Results

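The genes described here are 10 germline and early-embryo genes, examined in mouse embryonic stem (ES) cells, of 50600 gene rows in the table. The members are Dppa3 (Stella), Dppa5a, Dazl, Mael, Fkbp6, Zp3, Ooep, Khdc3, Tex19.1 and Sycp3. They were chosen by name with earlier results of these data known, and Fkbp6, Zp3 and Ooep were selected on their lower values in Myh9 KO cells. Those 3 are therefore given as a description, with no test. RNA-seq was done on 4 libraries of the OG2ES line, with the inner cell mass given as source, in mES medium plus 2i. There were 2 libraries of wild-type (WT) genotype and 2 of Myh9 KO genotype; Myh9 is the gene of the non-muscle myosin IIA heavy chain. From how many clones the KO libraries came is not given in the sources used here, so clone and genotype cannot be told apart. Nor is it given whether the 2 libraries of a group were separate cultures, so p-values reflect no more than library-to-library spread, possibly technical.

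Dppa3 codes for a small maternal-effect protein that shields the maternal genome from demethylation after fertilisation and restrains UHRF1, the partner of the maintenance DNA methyltransferase; it marks primordial germ cells, oocytes and naive ES cells. Ooep and Khdc3 code for KH-like subunits of the subcortical maternal complex, an assembly under the oocyte membrane that the early embryo needs, and Zp3 for a protein of the zona pellucida, the coat of the egg. Mael, Fkbp6 and Tex19.1 act in the germline's control of transposons, Mael and Fkbp6 in the piRNA pathway. Dazl is an RNA-binding regulator of germ cells and Sycp3 a part of the synaptonemal complex that holds meiotic chromosomes. In ES cells many germline genes are kept low by DNA methylation and by a Polycomb complex with MGA and E2F6, which recognise an E-box (CACGTG) and an E2F6-type site (GGCGGGA).

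Promoters bear on how such genes are silenced, so the 250 bases before the RefSeq start site (GRCm38.p6) are shown for 4 members, with matches to these motifs in capitals: Fkbp6, Zp3 and Mael hold an E-box, and Tex19.1 is shown for comparison as a germline gene with neither motif in this window. The windows are Fkbp6, chr5:135350045-135350294, minus strand; Zp3, chr5:135979855-135980104, plus strand; Mael, chr1:166238745-166238994, minus strand; and Tex19.1, chr11:121145893-121146142, plus strand.
Fkbp6: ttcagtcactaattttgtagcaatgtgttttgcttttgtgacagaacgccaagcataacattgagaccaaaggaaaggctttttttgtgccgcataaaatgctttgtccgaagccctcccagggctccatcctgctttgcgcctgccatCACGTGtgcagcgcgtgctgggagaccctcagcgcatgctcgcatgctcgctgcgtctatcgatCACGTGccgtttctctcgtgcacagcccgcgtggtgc
Zp3: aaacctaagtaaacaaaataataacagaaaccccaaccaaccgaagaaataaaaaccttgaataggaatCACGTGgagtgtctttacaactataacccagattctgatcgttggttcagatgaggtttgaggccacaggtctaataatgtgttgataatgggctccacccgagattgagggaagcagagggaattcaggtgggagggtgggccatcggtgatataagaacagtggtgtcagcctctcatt
Mael: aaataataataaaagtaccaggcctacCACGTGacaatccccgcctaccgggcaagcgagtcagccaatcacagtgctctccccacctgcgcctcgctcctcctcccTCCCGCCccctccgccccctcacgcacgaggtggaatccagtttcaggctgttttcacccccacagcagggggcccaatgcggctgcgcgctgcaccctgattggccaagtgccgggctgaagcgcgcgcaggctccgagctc
Tex19.1: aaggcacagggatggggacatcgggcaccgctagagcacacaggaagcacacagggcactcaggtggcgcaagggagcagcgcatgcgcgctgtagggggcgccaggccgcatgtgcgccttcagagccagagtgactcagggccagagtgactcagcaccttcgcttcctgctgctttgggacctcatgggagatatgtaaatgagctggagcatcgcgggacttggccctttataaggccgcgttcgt

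Windows were found for 8 of the 10 members; Dppa3 and Dppa5a had none. An E-box lay in the windows of 4 of the 8: at 101 and 37 bases before the start of Fkbp6, 181 before that of Zp3, 223 before that of Mael, and 64 and 43 before that of Sycp3. Of all 32851 windows 6.02% held an E-box and 0.429% held at least 2. Shares of all windows, here and for the E2F6-type site, include genes that were not tested. Of the tested genes, 855 had an E-box and 7504 had none, and 1851 had an E2F6-type site and 6508 had none. The E2F6-type site, searched on both strands, lay only in the Mael window, on the minus strand 143 bases before the start, against 9.75% of all windows; no E-box and E2F6-type site overlapped. Dazl, Ooep, Khdc3 and Tex19.1 held neither. CpG content also varied, with a median of 6 over all windows. Dazl had 20 CpG, Mael 18, Fkbp6 17 at its outer start site, Tex19.1 15, Sycp3 12, Ooep 11 and Zp3 5. Khdc3 had 0, as in 7.87% of windows. The E-box distances given for Fkbp6 are also those of its outer start site. At its inner start site the window held 29 CpG, and the E-boxes lay at 232 and 168 bases. Of the tested genes with an E-box in the window, 6.67% of 855 were called lower in Myh9 KO cells, and of those without, 5.25% of 7504. With the E2F6-type site the share was 4.38% of 1851, and without it 5.69% of 6508.

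Values are deposited scores, whole numbers that sum to between 992098 and 992317 per library, close to per-million units; whether they are divided by gene length is not stated, so levels are compared within a gene only. Depth is unknown. Log2 fold changes are of Myh9 KO against WT on the log2(value + 1) scale, which understates changes of low values, with a standard error (SE) and n = 2 libraries per group throughout. The words rose and fell are kept for genes that limma called at an adjusted p under 0.05 in both of its fits, on the values as deposited and with random decimals added. Myh9 itself was at 83 and 100 in the WT libraries and at 9 and 9 in Myh9 KO (-3.20 on the log2 scale, SE 0.12); its limma adjusted p, 0.00675, was 0.0675 and 0.0709 without Myh9 KO 1 or Myh9 KO 2, at the same change. The ES cell identity of the libraries was visible in 10 of 10 markers above 0 in every library, a list of naive and general pluripotency genes. Sox2 was called lower, a call lost without any 1 of the 4 libraries, and 9 were not called. Among the 9, Zfp42 (140 and 142, then 210 and 181) and Klf4 (51 and 59, then 65 and 69) were higher with random decimals only. Tfcp2l1 (66 and 73, then 59 and 57) was lower with random decimals only.

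Dppa3 fell in Myh9 KO cells to a ratio of 0.386 of its WT mean (ENSMUSG00000046323, mm10 chromosome 6, 122626410 to 122630272). Its values were 22 in each WT library and 8 and 9 in the Myh9 KO libraries. The groups were apart, with the WT values equal and the KO values 1 unit from each other. On the log2 scale the change was -1.28 (SE 0.07, limma adjusted p = 0.0136 as deposited and 0.000256 with random decimals), and the 95% interval of the fold ran from 0.349 to 0.488. Allowing every deposited value to have been rounded or stripped of its decimals, the ratio of means lies between 0.348 and 0.442. In bulk RNA, fewer cells that express Dppa3 and less Dppa3 RNA per cell cannot be told apart. Without WT 1 or WT 2 the adjusted p as deposited rose to 0.113 and 0.114, and with random decimals it was 0.00204 and 0.00202, at the same log2 fold change of -1.28.

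Dppa3 fell while the median gene of its chromosome was higher. The 555 tested genes of chromosome 6 had a median log2 fold change of 0.45, with 168 called higher and 14 lower, and the difference between Dppa3 and that median was -1.73. The coding genes averaging 1 or more within 100 kb are given here, from a cluster known for genes active in pluripotent cells. Gdf3, a TGF-beta family ligand 16.3 kb away, rose from 198 and 200 to 255 and 262 (log2 change 0.38, SE 0.02, limma adjusted p = 0.0134). The Gdf3 call was lost without WT 1 or WT 2 (limma adjusted p = 0.105 and 0.101 as deposited) and without the trend (0.0614 with random decimals). Slc2a3, a glucose transporter gene 97.5 kb away, rose from 625 and 641 to 999 and 1009 (0.66, SE 0.02), and kept its call without each library in turn. Nanog, 77.2 kb away, had 616 and 622 in WT, against 664 and 641 in Myh9 KO (limma adjusted p = 0.174), and Mfap5 had 5 and 5, then 7 and 4. Among these 5 genes Dppa3 alone had lower values in both Myh9 KO libraries than in both WT libraries. Of the 842 words of 50 bases in Dppa3 transcripts 16.5% also occur in other genes, mainly its pseudogene Dppa3-ps, which is listed at 0 in every library.

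**Figure D1:**
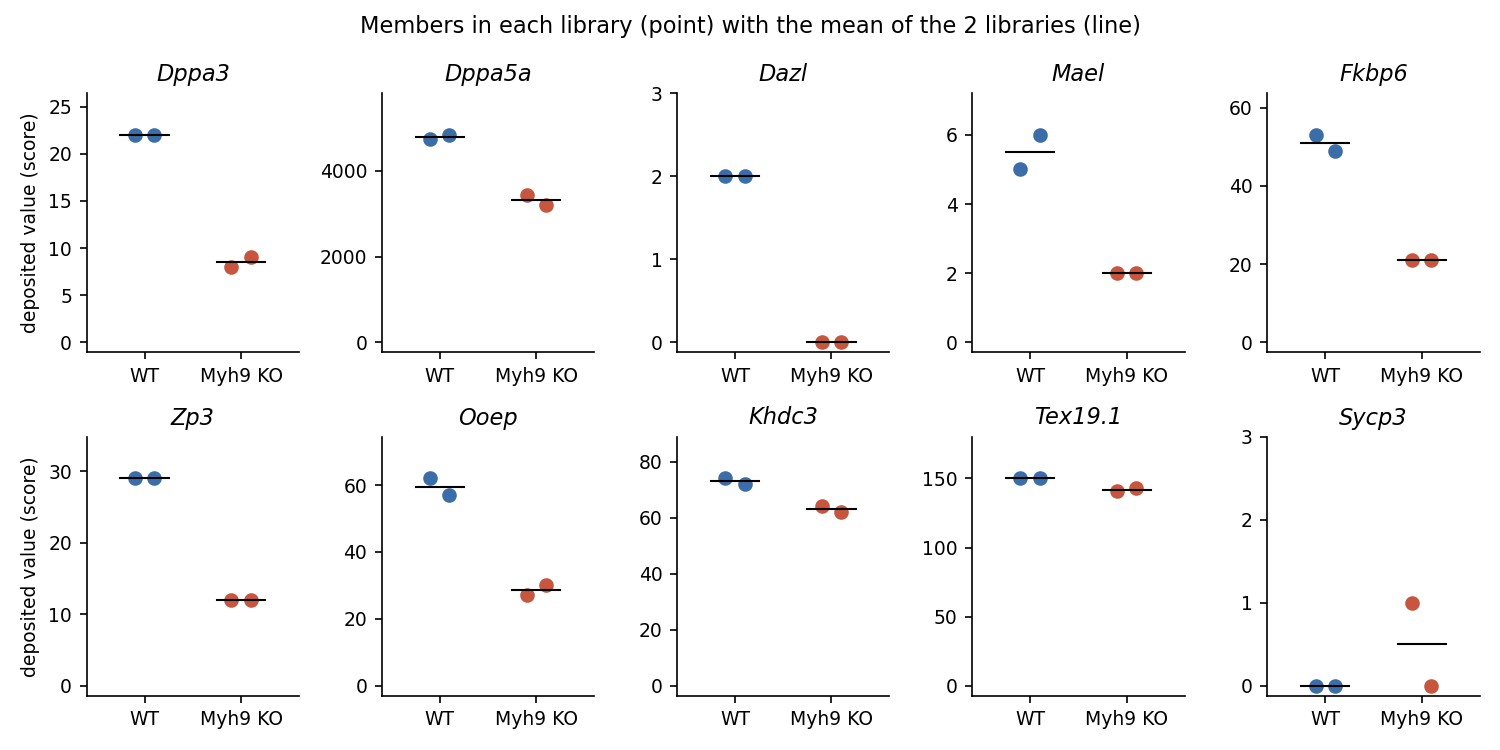
Deposited values (vertical axis, score, each panel with its own scale from 0) of the 10 genes in WT and Myh9 KO, a point per library and a line at the mean of 2 libraries. WT points lie above Myh9 KO points in 9 of the 10 panels, 3 of them picked for their lower values (27.3% of all tested genes show this order), from a wide gap in Dppa3 (22 and 22 against 8 and 9) to a narrow one in Tex19.1 (150 and 150 against 141 and 143); Sycp3 is at 0 or 1.

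Markers of other cells that the cultures could hold were counted for the same libraries. Markers of 2-cell-like cells, a small fraction of ES cultures that resembles the cleavage embryo, had lower values in Myh9 KO. The summed values of all 16 were 166 and 184 in WT, against 3 and 2 in Myh9 KO. Of the 15 tested, 13 had 0 in each Myh9 KO library and averaged 1 or more through their WT values alone. No count of calls is therefore given for this list. In Myh9 KO, Zscan4e had 2 and 1 and Tmem92 had 1 and 1. The part of these markers in the lower values of Dppa3 and the other members was not tested. Of 10 feeder fibroblast markers only Thy1 and Pdgfrb were above 0 in any library (sums 4 and 4, then 5 and 7), with Col1a1, Col1a2 and Dcn at 0. Of 10 granulosa and gonadal somatic markers only Amhr2 (5 and 5, then 12 and 9) and Star were above 0, with Foxl2, Fshr and Amh at 0.

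Both WT values were above both Myh9 KO values in 9 of the 10 members, an order that 27.3% of all tested genes also showed; 3 of these 9 had been picked for it, so nothing is read from that count. Leaving aside those 3, Dazl (listed at 0 in KO) and Sycp3 (below the filter), 5 members could be tested: 3 fell and 2 were not called, where 5.81% of all 11231 tested genes were called lower and 5.13% higher. The log2 fold changes of the 5 were -1.28 (Dppa3), -1.11 (Mael) and -0.53 (Dppa5a), which fell, and -0.21 (Khdc3) and -0.08 (Tex19.1). Those of Fkbp6 (-1.24), Zp3 (-1.21) and Ooep (-1.04) follow from how they were picked, so nothing is read from where they lie. With the trends of GC content and transcript length removed, the log2 fold change of Dppa3 was -1.17 and that of Khdc3 -0.28, and Khdc3 then passed (limma adjusted p = 0.0319).

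**Figure D2:**
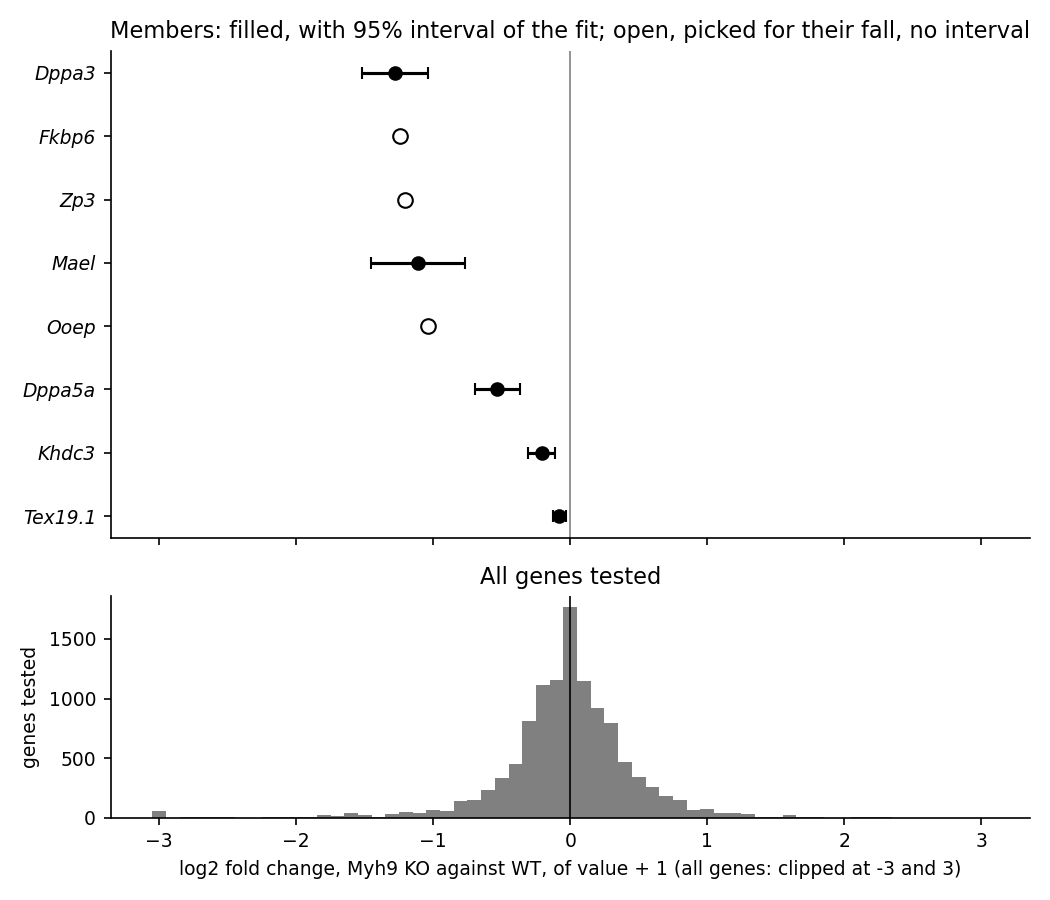
Top, log2 fold change (horizontal axis, Myh9 KO against WT, of value + 1) of 8 members: filled points with the 95% interval from limma, open points for the 3 genes picked for their lower values, without interval. Bottom, the number of the 11231 tested genes in bins of the same axis, those beyond -3 or 3 placed at the ends; Dppa3 at -1.28 lies in its left tail and Tex19.1 at -0.08 in its middle.

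Among the egg coat and maternal complex genes, Zp3 and Ooep had much lower values in Myh9 KO cells and Khdc3 slightly lower ones. Zp3 (ENSMUSG00000004948, chromosome 5, 135980099 to 135988624) was at 29 in each WT library and 12 in each Myh9 KO library, a ratio of 0.414, or between 0.383 and 0.456 allowing for the missing decimals. Replicates of Zp3 were equal in both groups, so no spread could be seen at this resolution. Ooep (ENSMUSG00000032346, chromosome 9, 78376109 to 78378725) was at 62 and 57 in WT, against 27 and 30 in Myh9 KO, a ratio of 0.479 and a log2 difference of -1.04. Khdc3, its partner in the subcortical maternal complex (ENSMUSG00000092622, chromosome 9, 73101836 to 73104438), was at 74 and 72 and at 64 and 62, a ratio of 0.863. Its groups did not overlap, but the fit did not call it (log2 change -0.21, SE 0.03, limma adjusted p = 0.0528 as deposited and 0.0539 with random decimals), with a 95% interval of the fold from 0.807 to 0.927. Of its 50-base words 34.1% also occur in Gm20509, a gene model that overlaps it on the same strand and is listed at 0 throughout.

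Dppa5a, which codes for a KH-domain RNA-binding protein abundant in ES cells, fell less steeply (ENSMUSG00000060461, chromosome 9, 78367052 to 78368177). Its values were 4755 and 4841 in WT, against 3438 and 3205 in Myh9 KO. The gap between groups exceeded the gaps within them: the means were 4798 ± 60.8 and 3321.5 ± 165 (SD, n = 2 each), a ratio of 0.692. On the log2 scale the change was -0.53 (SE 0.05, limma adjusted p = 0.0274 as deposited and 0.0001 with random decimals), with a fold interval from 0.619 to 0.774. Without WT 1 or WT 2 the adjusted p as deposited rose to 0.168 and 0.176. Of its 50-base words 38.6% occur in other genes, mostly its processed pseudogenes Gm15310, Gm5250, Gm6083 and Gm6798, all listed at 0, and Pigp, at 22 and 21 in WT, against 22 and 19 in Myh9 KO; how reads were split between these is not stated.

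Ooep and Dppa5a are neighbours, with 7.93 kb between them, while Khdc3 lies 5.26 Mb away on the same chromosome. The other coding genes averaging 1 or more within 100 kb of Ooep were Mto1 (15 and 16, then 14 and 14) and the translation factor gene Eef1a1 (6446 and 6550, then 5614 and 5300). Neither was called. The log2 values in this stretch were -1.04 for Ooep, -0.53 for Dppa5a, -0.14 for Mto1 and -0.25 for Eef1a1, and the median of the 653 tested genes of chromosome 9 was 0.00. Around Khdc3 none of 4 coding neighbours averaging 1 or more was called, with log2 fold changes from -0.34 to 0.37.

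In the piRNA and transposon group, Mael fell, Fkbp6 had lower values and Tex19.1 did not pass the test. Mael (ENSMUSG00000040629, chromosome 1, 166201201 to 166238747) went from 5 and 6 to 2 and 2. At such low whole numbers the ratio of means, 0.364, may lie anywhere between 0.231 and 0.6. Its log2 fold change was -1.11 (SE 0.10, limma adjusted p = 0.0277 as deposited and 0.00916 with random decimals), and none of its 50-base words occurs in another gene. The call for Mael was lost without WT 2 (adjusted p = 0.0656 with random decimals) and without Myh9 KO 1 or Myh9 KO 2 (0.156 and 0.168 as deposited). Fkbp6, a co-chaperone of the FK506-binding family (ENSMUSG00000040013, chromosome 5, 135291704 to 135350044), was at 53 and 49 in WT, against 21 in each Myh9 KO library, a ratio of 0.412 and a log2 difference of -1.24.

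Tex19.1, which restrains retrotransposons in germ cells and placenta (ENSMUSG00000039329, chromosome 11, 121146143 to 121148319), was not called. It was at 150 in each WT library and at 141 and 143 in Myh9 KO, a ratio of 0.947. The log2 fold change of -0.08 (SE 0.01) did not pass the threshold (limma adjusted p = 0.0707 as deposited and 0.337 with random decimals), and its fold interval ran from 0.917 to 0.978. Its paralog Tex19.2, 27.5 kb away, was at 2 and 3 in WT, against 1 and 1 in Myh9 KO and was not called.

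The remaining members were at the lower end of what whole-number values can show. Dazl (ENSMUSG00000010592, chromosome 17, 50279394 to 50293599) was at 2 in each WT library and listed at 0 in each Myh9 KO library, so no fold is given. Sycp3 (ENSMUSG00000020059, chromosome 10, 88459569 to 88473236) had 0 in both WT libraries and 1 and 0 in Myh9 KO. Sycp3 lies wholly within the span of Chpt1 on the opposite strand (17 and 16, then 19 and 13), and the library protocol names no step that keeps strand, so even that value of 1 cannot be assigned with certainty.

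Fkbp6 and Zp3 lie on chromosome 5 with 630.05 kb between their spans. Of 5 coding genes averaging 1 or more within 100 kb of Fkbp6 none was called, with log2 fold changes from -0.29 (Baz1b) to 0.21 (Nsun5). Of such genes, Ssc4d and Dtx2 flank Zp3 most closely. Ssc4d, 5.57 kb away, was at 9 and 8 in WT, against 12 and 13 in Myh9 KO. Dtx2, 6.18 kb away, was at 29 and 31 and at 30 and 32, and neither was called. Farther off, the heat-shock protein gene Hspb1 fell from 1609 and 1536 to 1112 and 1185 (log2 change -0.45, SE 0.05, limma adjusted p = 0.0394). Beside Mael, Dusp27 fell from 34 and 37 to 21 and 23 and Gpa33 was not called. The calls of Hspb1 and Dusp27 were lost without any 1 of the 4 libraries (limma adjusted p from 0.114 to 0.193 and from 0.138 to 0.185 as deposited). Over the 31 coding neighbours averaging 1 or more around all members, each counted once and members left out, 2 were lower and 2 higher. Of all tested genes, 5.81% were called lower and 5.13% higher.

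**Figure D3:**
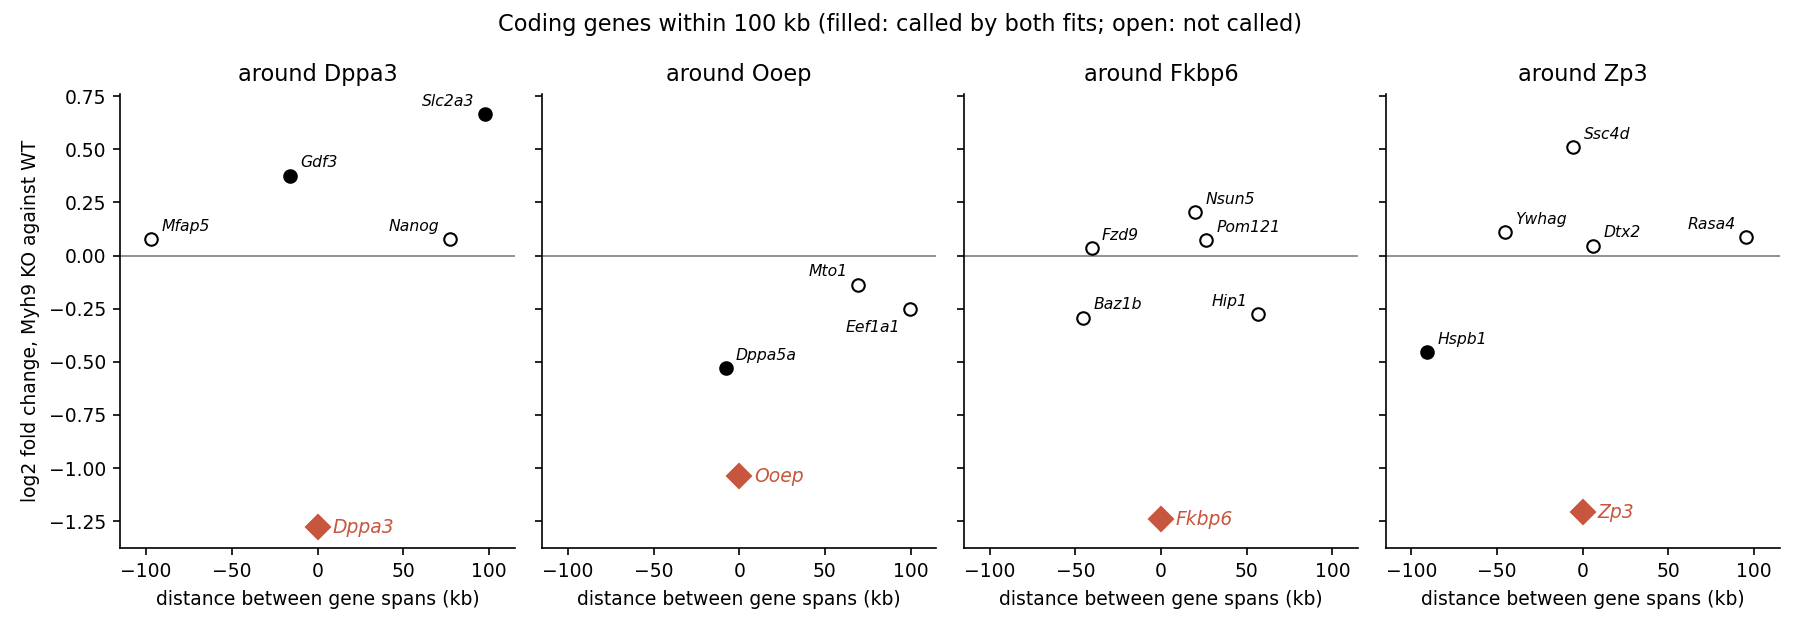
Log2 fold change (vertical axis, Myh9 KO against WT) of coding genes averaging 1 or more within 100 kb of Dppa3, Ooep, Fkbp6 and Zp3, against the distance between gene spans in kb (horizontal axis, negative towards lower coordinates). Diamonds are the named member at distance 0 and circles its neighbours, filled where both fits called the gene; Gdf3 (0.38) and Slc2a3 (0.66) lie above 0 beside Dppa3 (-1.28), and Dppa5a (-0.53) lies beside Ooep (-1.04).

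Across the 4 libraries the genes averaging 10 or more whose centred log2 profile lay nearest to that of Dppa3 were, by Euclidean distance, Ly6g6e (0.0265), Adap1 (0.0747), Ckmt1 (0.0981), Zp3 (0.129) and Fkbp6 (0.138), out of 6192 named coding genes. Ly6g6e went from 24 and 24 to 9 and 10, Adap1 from 89 and 91 to 35 and 41, and Ckmt1, a mitochondrial creatine kinase gene, from 29 and 27 to 11 and 12. Ooep ranked 17th, at a distance of 0.255, and Dppa5a, Khdc3 and Tex19.1 ranked 248, 1249 and 2212. With 4 libraries in 2 groups this measure reads little beyond the size of the difference between groups, and Zp3 and Fkbp6 had been picked for theirs.

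Other genes of these pathways were called in both directions, and 50 of the 93 in the table were listed at 0 in every library. Of 95 genes in 6 germline lists (15 to 25 genes in 5 of them and 7 in the last), 93 were in the table and 35 were tested. Of the 35, 5 were lower (14.3%, against 5.81% of all tested genes), 4 higher (11.4%, against 5.13%) and 26 not called, and their median log2 fold change was -0.06 against 0.00 for all tested genes. Without WT 1 or WT 2 these counts were 2 lower and 2 higher, and without Myh9 KO 2 they were 3 lower and 4 higher.

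In the primordial germ cell list, 3 of 12 tested genes fell and 1 rose (median -0.06). The list also holds Rpl10l, a gene of the male germline and 1 of the 3, so the count is not of primordial germ cell genes alone. Of all tested genes, 5.81% were called lower and 5.13% higher. Ifitm3, an interferon-induced membrane protein known as a marker of early germ cells, fell from 447 and 423 to 217 and 223 and its relative Ifitm1 from 338 and 340 to 201 and 193 (log2 change -0.98, SE 0.04, and -0.78, SE 0.03). Rpl10l, a ribosomal protein paralog of the male germline, fell from 148 and 162 to 51 and 49 (-1.61, SE 0.06). Lin28a, an RNA-binding protein gene needed for germ cell specification, rose from 111 and 114 to 215 and 217. Lin28a kept its call without each library in turn, Ifitm1 lost it without WT 1 or WT 2 (limma adjusted p = 0.0725 and 0.0736 as deposited), and Ifitm3 (0.0675 and 0.0681) and Rpl10l (0.0649 and 0.0699) lost it without Myh9 KO 1 or Myh9 KO 2. The germ cell specification factor genes Prdm14 (17 and 17, then 12 and 16) and Tfap2c (14 and 16, then 17 and 15) were not called.

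In the oocyte list, the transcription factor gene Sohlh2 was the only one of 15 genes above 0, and it fell from 17 and 18 to 9 and 10 (log2 change -0.82, SE 0.07, limma adjusted p = 0.0277). The Sohlh2 call was lost without any 1 of the 4 libraries (limma adjusted p from 0.0756 to 0.161 as deposited). The zona genes Zp1 and Zp2, which act with Zp3 in the egg coat, were listed at 0 in every library, as were Gdf9, Bmp15, Figla and Nobox. Among maternal-effect genes 6 of 15 were tested and none was called by both fits (median 0.04). Of the partners of Ooep and Khdc3, Nlrp5 and Padi6 were listed at 0, and Tle6 was at 10 and 11 in WT, against 27 and 20 in Myh9 KO (limma adjusted p = 0.0763 as deposited and 0.00176 with random decimals). Tle6 thus had higher values in Myh9 KO where those of Ooep were lower.

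Of 7 tested piRNA genes, Pld6, a mitochondrial enzyme gene of piRNA processing, fell from 12 and 12 to 8 and 8 (log2 change -0.53, SE 0.02), and 6 were not called (median -0.53). The Pld6 call was lost without WT 1 or WT 2 (limma adjusted p = 0.104 and 0.101 with random decimals). Tdrd12 was at 32 and 33 in WT, against 19 and 14 in Myh9 KO, called with random decimals only (limma adjusted p = 0.0881 as deposited). Of 7 tested meiotic genes, 3 rose and none was called lower by both fits (median 0.28). Over all tested genes 5.81% were called lower and 5.13% higher. With 7 tested genes in each list, nothing is read from the counts. Stra8, the gene of the retinoic acid-induced trigger of meiosis, rose from 3 and 3 to 8 and 7 and the meiotic cohesin gene Stag3 from 3 and 3 to 7 and 7. Stra8 lies on chromosome 6, whose median was 0.45 as given above, and its call was lost without WT 1 or WT 2 (limma adjusted p = 0.145 for each, as deposited). Syce2, a central element gene of the synaptonemal complex, rose from 107 and 107 to 131 and 129; it overlaps Gcdh on the opposite strand, at 33 and 33 and at 47 and 51, and lies on chromosome 8, whose 646 tested genes had a median of 0.21; its call too was lost without WT 1 or WT 2 (limma adjusted p = 0.0860 and 0.0864). Dppa2 (82 and 83, then 63 and 57) and Dppa4 (93 and 88, then 109 and 98), a pair of chromatin factors of the early embryo, were not called.

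**Figure D4:**
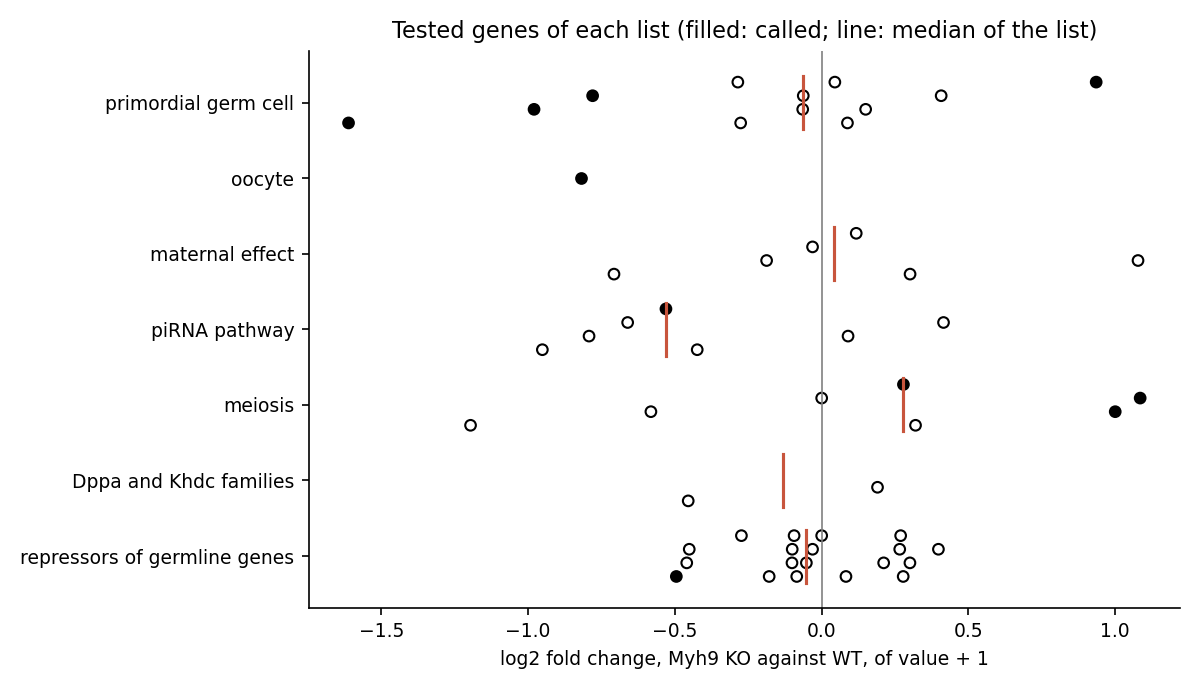
Log2 fold change (horizontal axis, Myh9 KO against WT, of value + 1) of each tested gene of 6 germline lists and of the repressors of germline genes, filled where both fits called it, with a line at the median of each list that has more than 1 gene. Filled points lie on both sides of 0: Rpl10l (-1.61), Ifitm3 (-0.98), Sohlh2 (-0.82), Ifitm1 (-0.78) and Pld6 (-0.53) to the left and Lin28a (0.94), Stag3 (1.00), Stra8 (1.08) and Syce2 (0.28) to the right, with Hdac2 (-0.50) among the repressors.

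Of 19 tested genes for factors known to silence germline genes, 18 were not called (median -0.05). The remaining 1 was called lower, where 5.81% of all tested genes were. That gene, the histone deacetylase gene Hdac2, fell from 72 and 74 to 52 and 51 (log2 change -0.50, SE 0.02, limma adjusted p = 0.0111). The Hdac2 call was lost without any 1 of the 4 libraries (limma adjusted p from 0.0567 to 0.0712 as deposited). Max (90 and 84, then 80 and 82) and E2f6 (7 and 8, then 7 and 7), partners in the Polycomb complex described above, were among the 18 not called. Mga was listed at 0 in every library, which does not show that the gene is silent in these cells. Uhrf1, the gene of the methylation factor that Stella restrains, was at 401 and 427 in WT, against 489 and 515 in Myh9 KO (log2 change 0.28, SE 0.05, limma adjusted p = 0.0835 as deposited and 0.00629 with random decimals). These are RNA values and do not show UHRF1 protein or its restraint. Dnmt1 was at 106 and 116 and at 119 and 116 and was not called.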

How the data were processed

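RNA-seq was run on 2 WT and 2 Myh9 KO libraries. The deposited table gives a whole-number score per gene and library, with nearly equal totals, so the values were not treated as counts. Bowtie2 2.2.5, RSEM 1.3.0 and bcl2fastq are named without a role, with the builds mm10 and hg38, per the submitters' processing notes; how the scores were made is not given in the sources used here. Of 50600 identifiers 50376 were found in GENCODE vM21 (mm10), 92.91% of these with the same coordinates.

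The 11231 genes averaging 1 or more were fitted with limma 3.58.1 (R 4.3.3) on log2(value + 1), with an intensity trend, no replicate block and Benjamini-Hochberg adjustment over all tested genes. Equal whole numbers leave no spread, so a second fit added a uniform number between 0 and 1 to every value (median adjusted p over 25 draws), and a call needs both at 0.05. Lists are described by counts and medians. Members, lists and the call rule were chosen with earlier results of these data known. Named genes were the members, Myh9 and up to 3 called genes per list (or the 2 with the highest values). Coding neighbours averaging 1 or more within 100 kb and the 5 profiles nearest to Dppa3 were also named. Other list genes named were chosen after their values were seen. Shared words of 50 bases were counted in GENCODE transcripts, and promoter windows came from RefSeq (GRCm38.p6). Alternatives were other pseudocounts, filters and scaling, random decimals alone, no trend, a replicate block, removal of GC content and length trends, and leaving out each library.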

Additional observations from a re-analysis of the deposited data

How the results depend on the processing

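The 5 members tested kept the direction of their log2 fold change under each of the 14 alternatives, all of which refit the same libraries. For Mael there were 13, as a minimum mean value of 5 leaves it out. The ranges were -1.35 to -1.17 (Dppa3), -0.58 to -0.47 (Dppa5a), -1.26 to -0.90 (Mael), -0.28 to -0.19 (Khdc3) and -0.10 to -0.07 (Tex19.1). Fkbp6 (-1.30 to -1.18), Zp3 (-1.26 to -1.15) and Ooep (-1.11 to -0.96) had been picked for their lower values in these libraries. Nothing is read from their direction. With a replicate block the fits called 10 genes higher and 44 lower (against 576 and 652), 0 in the germline lists in either direction, and not Dppa3 (-1.28, limma adjusted p = 0.0902), Dppa5a (-0.53, 0.115) or Mael (-1.11, 0.106); these are p-values as deposited, and with random decimals all 3 passed. The deviations of same-numbered libraries correlated at 0.041. With 2 pairs of whole-number values this cannot settle whether the numbers pair the samples. With GC content and length trends removed 1100 genes were higher and 1307 lower, with 8 lower in the germline lists, and with the replicate block as well 1079 and 1227, with 9; Khdc3 then passed at -0.28 in both, and also at -0.21 with a minimum mean value of 5. Random decimals alone called 1243 higher and 1357 lower, with 10 lower in the germline lists; rescaling gave 8 there. Leaving out 1 library gave 149 to 333 higher and 199 to 406 lower, 2 to 4 and 2 to 5 in the germline lists, -1.35 to -1.20 for Dppa3, -0.58 to -0.48 for Dppa5a and -1.22 to -1.0 for Mael; the lone library is then assumed to vary like the other group. Among named genes without a call, Dppa2, Dppa4, Uhrf1, Amhr2, Nanog, Gpa33, Hip1, Ssc4d, Eef1a1 and Narf passed under at least 1 alternative. So did Tle6, Tdrd12, Syce1, Hormad2, Sall4 and Hsf1, and, with random decimals alone, Zfp42, Klf4, Tfcp2l1, Dnmt3b, Rnf2, Hdac1 and Cbx1. The causes of these shifts were not tested. Whole-number values limit what can be read for genes at a few units, such as Mael and Dazl.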

Other observations

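A further 8 genes of the germline lists were called by 1 of the 2 fits only and are given as values chosen after they were seen. With random decimals only, 5 were lower: Syce1 (6 and 5 in WT, 3 and 1 in Myh9 KO), a synaptonemal complex gene; Tdrd12 (32 and 33, then 19 and 14), a piRNA gene; Hormad2 (7 and 6, then 4 and 4), a meiotic chromosome axis gene; Dppa2; and Sall4 (207 and 204, then 163 and 174), a transcription factor gene of germ and ES cells. With random decimals only, 2 were higher, Tle6 (10 and 11, then 27 and 20) and the heat-shock factor gene Hsf1 (33 and 30, then 39 and 39). The PIWI gene Piwil2 was called higher only as deposited, at 2 and 2 in WT, against 3 and 3 in Myh9 KO, where equal replicates leave no spread.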
